A study of Mus musculus with 4 samples.

Results

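A stretch of mouse chromosome 14 that carries Slc25a37, Entpd4 and Loxl2 gave less signal from liver tumour DNA than from reference DNA in each of 4 tumours, by a nearly equal amount. The 6 gene names described here, Slc25a37, AK046150, Entpd4, AK031288, BC086315 and Loxl2, are those that the array design gives to probes starting between 69.8 and 70.15 Mb (mm9) and that had been selected on the measured ratio of tumour over reference DNA in these same arrays. They hold 20 probes, out of 170305 probes and 20749 gene names in the whole series, and the window as a whole holds 36 probes. Because the ratio chose them, their ratios are given as a description. Their calls in the test over all gene items are listed below, and nothing is read from them.

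Array comparative genomic hybridisation puts DNA labelled with 2 dyes on the same probes, and the log2 ratio of the dyes tells how much more or less of a stretch one DNA holds than the other. A negative value can come from fewer copies in the tumour or from more copies in the reference, and the ratio by itself does not say which. Inbred mice of a single strain can differ in copy number at some loci, and array comparisons of littermates record such differences too. Slc25a37 encodes mitoferrin-1, which brings iron into mitochondria for the synthesis of haem and iron-sulphur clusters. Entpd4 encodes an enzyme of Golgi and lysosomal membranes that hydrolyses nucleotides, and Loxl2 encodes a secreted lysyl oxidase that cross-links collagen.

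The tested DNA came from 4 liver tumours, 1 per mouse, of male Trp53-/- mice on the C57BL/6J background in which, per the title, Trp53 (the gene of the p53 tumour suppressor) was lost in the liver only; it carried Cy5, read in red. The reference was DNA pooled from the spleens of 3 littermates of the same sex, labelled Trp53-/- and male as well and carrying Cy3, read in green. The labelling protocol calls this reference liver, and the labels do not say whether 1 pool served all 4 arrays, name the driver of the liver-specific loss or give the age. A tumour sample holds all cells of the piece taken, so a difference carried by some of the cells cannot be told apart from a smaller difference carried by all of them. Tumour 1 goes against its label: its probes averaged 0.81 on chromosome X and -3.03 on chromosome Y (log2 tumour over reference), where male tumour and male reference DNA would give values near 0. Chromosome Y was at -1.12, -0.53 and -0.43 in tumours 2 to 4. Tumours 1 and 4 were hybridised on the same slide. Median signals over background were 1168, 534, 523 and 1291 in red and 668, 353, 164 and 591 in green on the arrays of tumours 1 to 4, and all 24 probes of the low stretch were well above background and unsaturated on each array. With 1 array per tumour and 4 tumours, precision is limited.

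The probes that frame the stretch show where it begins and ends, and the 3 Entpd4 probes lie in its middle. All are 60 bases long and are printed 5′ to 3′ as the array files give them, with G and C in capitals because the dyes' ratio varied with GC content on these arrays; positions are mm9, and the files do not state the strand. Each of the 24 probes of the stretch has a sequence that no other probe on the array shares. Whether a sequence occurs more than once in the mouse genome was not tested, since no mm9 genome was used here.
Last probe outside on the left (ENSMUST00000111071), chr14:69853670-69853729: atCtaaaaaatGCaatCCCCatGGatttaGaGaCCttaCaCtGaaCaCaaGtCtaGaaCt
First probe inside (Slc25a37), chr14:69863952-69864011: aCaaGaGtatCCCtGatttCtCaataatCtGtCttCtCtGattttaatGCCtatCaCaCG
Entpd4, left probe, chr14:69955867-69955926: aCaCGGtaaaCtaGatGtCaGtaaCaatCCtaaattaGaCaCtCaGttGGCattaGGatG
Entpd4, middle probe, chr14:69962822-69962881: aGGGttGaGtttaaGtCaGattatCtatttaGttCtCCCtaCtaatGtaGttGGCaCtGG
Entpd4, right probe, chr14:69975708-69975767: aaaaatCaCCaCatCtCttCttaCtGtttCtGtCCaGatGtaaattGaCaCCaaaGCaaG
Last probe inside (Loxl2), chr14:70090549-70090608: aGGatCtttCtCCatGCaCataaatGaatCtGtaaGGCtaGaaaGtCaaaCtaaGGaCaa
First probe outside on the right (AF117951), chr14:70096263-70096322: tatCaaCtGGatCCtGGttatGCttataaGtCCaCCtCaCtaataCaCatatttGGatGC
A further pair shows the extremes of likeness between tumours, the AK031288 probe with the smallest range over the 4 tumours and the Loxl2 probe with the largest.
AK031288, most alike, chr14:69990315-69990374: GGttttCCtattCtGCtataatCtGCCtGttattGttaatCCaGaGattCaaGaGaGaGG
Loxl2, least alike, chr14:70023334-70023393: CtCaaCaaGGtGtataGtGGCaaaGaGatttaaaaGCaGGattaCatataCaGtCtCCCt

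The stretch held 24 neighbouring probes, from 69863952 to 70090608 on chromosome 14, which is 227 kb. It was found as a segment by penalised least squares on the mean profile of the 4 tumours, and the same 24 probes were found in tumours 1, 2 and 4 taken alone. In tumour 3 the segment began 1 probe later, at 69876584, because the leftmost Slc25a37 probe was at -0.24 there, against -0.43, -0.59 and -0.32 in tumours 1, 2 and 4. The right end was the same in all 4 tumours. On the mean profile, the change on the left lay in a gap of 10.2 kb between 69853729 and 69863952. On the right it lay in a gap of 5.65 kb between 70090608 and 70096263. The last probe outside on the left was at -0.03, -0.15, 0.04 and -0.06 in tumours 1 to 4, and the first outside on the right at 0.44, 0.43, -0.11 and 0.20. On the mean profile, all 4 Slc25a37 probes and all 9 Loxl2 probes lay inside, so neither end fell between probes of the same gene. In tumour 3 alone, the left end fell between the leftmost Slc25a37 probe and the next probe of that gene.

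**Figure D1:**
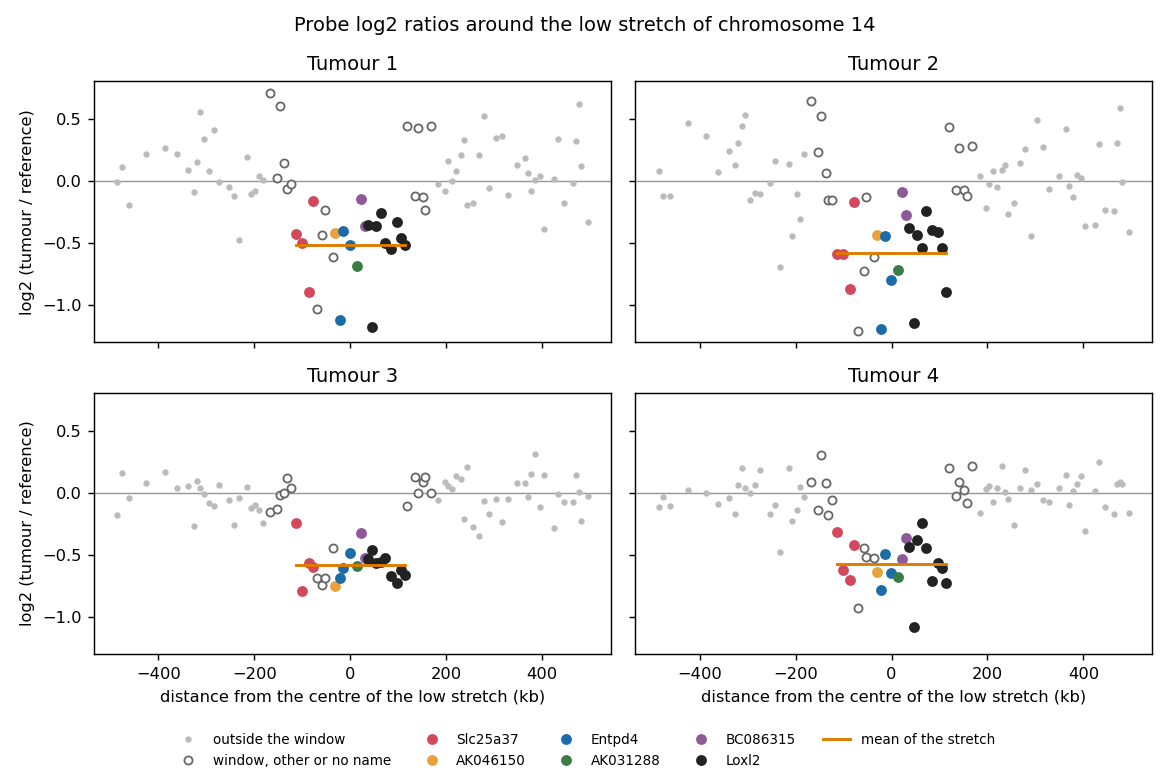
Log2 ratio of tumour over reference DNA (vertical axis) of single probes by their distance in kb from the centre of the low stretch (horizontal axis), 1 panel per tumour. Filled points are probes of the member genes, open points other probes of the window, grey points probes outside it, and the orange line the mean of the 24 probes (-0.52, -0.58, -0.58 and -0.58 in tumours 1 to 4). All 24 probes lie below 0 in every panel, with the least scatter in tumour 3.

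Averaged over the 24 probes, the log2 ratio was -0.52, -0.58, -0.58 and -0.58 in tumours 1 to 4, with a mean of -0.56 ± 0.03 (SD, n = 4) and a range of 0.07. As a ratio this is 0.677 of the reference. The 167 flanking probes within 1 Mb of the window averaged 0.04, 0.00, -0.03 and -0.01. Relative to these flanks the stretch was at -0.56, -0.58, -0.56 and -0.57 (mean -0.57 ± 0.01, SD, n = 4), so the tumours differed even less once each array's local level was taken off. Without tumour 1, whose sex chromosomes go against its label, the mean of the stretch was -0.58.

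All 24 probes were below 0 in all 4 tumours, against 28 of 167 flanking probes. At or below -0.3 in all 4 tumours were 17 of the 24, of which 14 were among the 20 probes with a member name. None of the other 12 probes of the window and 3 of the 167 flanking probes were that low, and among 161427 autosomal probes 1616 (1.00%) were. The rule used this ratio, so nothing is read from these counts. Just outside the window, the nearest probe on the left averaged -0.01 and the nearest on the right -0.05; just inside its right edge, the outermost probe, of AF117951, averaged 0.23.

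Slc25a37, at the left end, averaged -0.49, -0.55, -0.55 and -0.52 over 4 probes in tumours 1 to 4, with a mean of -0.53 ± 0.03 (SD, n = 4). Its tumour values lay within 0.06 of each other, the closest of the 6 names, while its probes ranged from -0.76 to -0.33 when each was averaged over tumours. Entpd4, in the middle, averaged -0.68, -0.81, -0.59 and -0.64 over 3 probes, with a mean of -0.68 ± 0.09, the lowest of the 6 names. Its left probe was at -1.12, -1.19, -0.68 and -0.78, its middle probe at -0.41, -0.45, -0.61 and -0.49, and its right probe at -0.52, -0.80, -0.48 and -0.65. The lower mean of Entpd4 thus came mostly from its left probe, and in tumour 3 its 3 probes lay between -0.68 and -0.48. Loxl2, at the right end, averaged -0.50, -0.55, -0.59 and -0.58 over 9 probes, with a mean of -0.56 ± 0.04. Of these 9 probes, 7 were at or below -0.3 in all 4 tumours, and its least alike probe was at -1.17, -1.14, -0.46 and -1.08.

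The other 3 names are those of transcripts, and none of them is a current symbol in the RefSeq table used for names. AK046150, left of Entpd4, had 1 probe at -0.41, -0.43, -0.75 and -0.64 in tumours 1 to 4. AK031288, right of Entpd4, had 1 probe at -0.68, -0.71, -0.59 and -0.67, whose range of 0.13 over tumours was the smallest in the stretch. BC086315, between AK031288 and Loxl2, had 2 probes and averaged -0.25, -0.18, -0.43 and -0.45, with a mean of -0.33 ± 0.13, the highest of the 6 names. Both of its probes were below 0 in all 4 tumours but neither reached -0.3 in all of them. The 4 probes of the stretch without a gene name, between Slc25a37 and AK046150, averaged -0.58, -0.67, -0.64 and -0.60. Split at Entpd4, the 9 probes to its left averaged -0.57 ± 0.04 and the 12 to its right -0.53 ± 0.04 over tumours (SD, n = 4). By tumour, the left part was at -0.52, -0.59, -0.61 and -0.57 and the right part at -0.47, -0.50, -0.56 and -0.56. The left part was thus the lower in each tumour, by the least in tumour 4, and the difference was not tested.

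**Figure D2:**
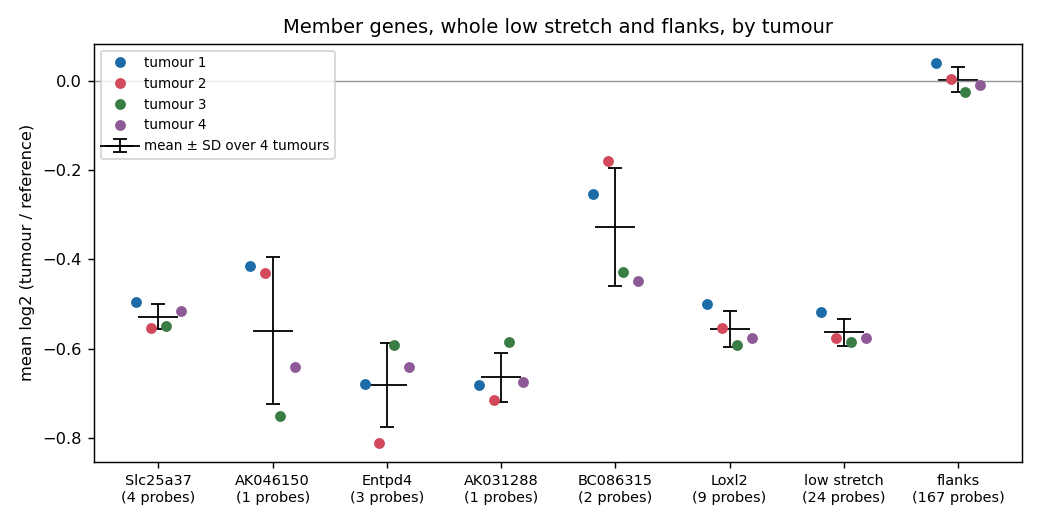
Mean log2 ratio of tumour over reference DNA (vertical axis) of each member gene, of the whole low stretch and of the flanking probes within 1 Mb (horizontal axis). Points are tumours, and the bars give the mean ± SD over 4 tumours. The genes average between -0.68 (Entpd4) and -0.33 (BC086315), and the flanks 0.00.

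Scatter between the probes of the stretch was close to that of the flanks in each array. The SD over the 24 probes was 0.28, 0.32, 0.13 and 0.19 in tumours 1 to 4, against 0.26, 0.29, 0.17 and 0.18 over the flanking probes. The GC content of the 24 probes ran from 33.3% to 40.0%. The log2 ratio correlated with GC content at 0.22, 0.13, -0.05 and 0.13 over all autosomal probes in tumours 1 to 4, and at -0.21, -0.18, 0.02 and -0.17 over the 24 probes. The part of GC content in the differences between member genes was not tested. Correcting for GC content gave a mean of -0.58 for the stretch, against -0.56 without the correction.

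Set beside whole-number copy ratios, the level was nearest to 2 of 3, which corresponds to -0.58 on the log2 scale. The stretch stood 0.07, 0.01, 0.00 and 0.01 above that level in tumours 1 to 4. From a ratio of 3 of 4 (-0.42) it differed by -0.10, -0.16, -0.17 and -0.16. The mean over tumours lay 0.44 above 1 of 2 (-1), 0.17 above 3 of 5 (-0.74) and below 4 of 5 (-0.32), from which it differed by -0.24. These distances describe the values that chose the stretch and test no level against another, and any compression of ratios by the array was not tested. Under normexp background correction the mean was -0.72 ± 0.11 (SD, n = 4), where 3 of 5 is the nearest of these ratios. As a median over probes, tumour 1 was at -0.45, nearer to 3 of 4 than to 2 of 3. The medians of tumours 2 to 4, at -0.54, -0.59 and -0.55, were nearest to 2 of 3.

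The same values can be written as copies in the reference. If a tumour held 2 copies, the reference would hold 2.86, 2.98, 3.00 and 2.98 on the arrays of tumours 1 to 4. In a pool of 3 mice, a mean of 3 copies means 3 extra copies among them, while 2 extra copies would give -0.42 and 4 extra copies -0.74 on the log2 scale. This is arithmetic on the ratio, which is the same for 2 copies against 3 as for any other pair of numbers in that proportion.

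**Figure D3:**
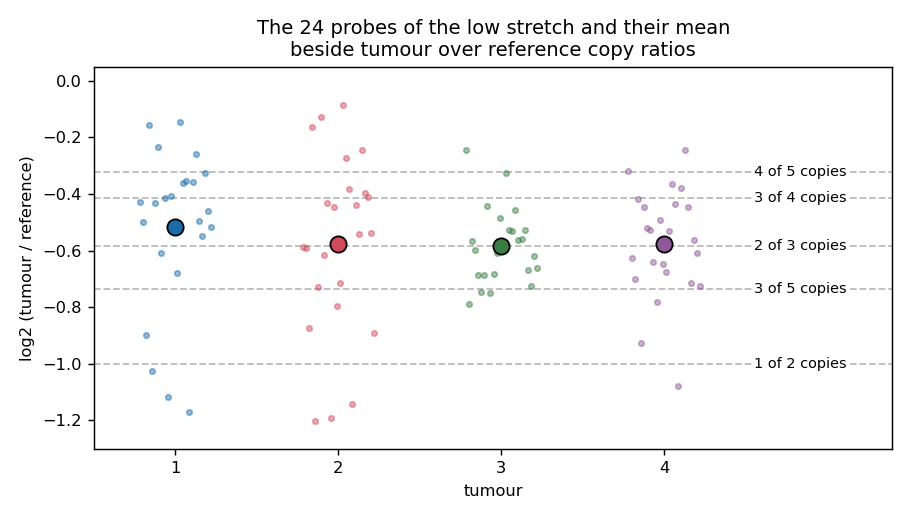
Log2 ratio of tumour over reference DNA (vertical axis) of the 24 probes of the low stretch in each tumour (horizontal axis): small points are probes and large points their mean. Dashed lines mark the log2 of whole-number tumour over reference copy ratios. The means, at -0.52, -0.58, -0.58 and -0.58, lie nearest to the 2 of 3 line.

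The signals of the separate channels were set beside those of the flanks as a description, since they form the ratio that chose the stretch. In red, the tumour DNA, the 24 probes had median processed signals of 928, 1046, 1213 and 1004 on the arrays of tumours 1 to 4, against 974, 1012, 1041 and 1003 for the flanking probes. In green, the reference DNA, they had 1399, 1656, 1680 and 1563, against 956, 1032, 1013 and 998 for the flanking probes. On the log2 scale, the mean red signal of the stretch minus that of the flanks was 0.08, 0.16, 0.22 and 0.10, and the SD over the 24 probes was 0.65, 0.71, 0.57 and 0.56. The same difference in green was 0.64, 0.74, 0.77 and 0.66, and the SD over the 24 probes was 0.48, 0.53, 0.60 and 0.49. Stretch and flanks are different probes, whose signals also differ by how strongly each probe binds, so neither difference was tested. Taken relative to autosomal probes of like GC content, the red signal of the stretch averaged 0.05 and the green signal 0.61 over the 4 arrays.

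By single probes, the green signal of 21 of the 24 lay above the flank median on all 4 arrays and that of 0 lay below it on all 4. The red signal lay above the flank median on all 4 arrays at 11 of the 24 and at or below it on all 4 at 9. Relative to the flanks, Slc25a37 averaged 0.45 in red and 0.98 in green over the 4 arrays, Entpd4 -0.21 in red and 0.47 in green, and Loxl2 -0.13 in red and 0.42 in green. Each gene was higher in green than in red on every array, and genes that were high in one channel were high in the other. In background-subtracted raw signals without dye scaling, the stretch also stood higher relative to its flanks in green than in red. On the array of tumour 1, the stretch had medians of 1086 in red and 945 in green, against 1203 in red and 671 in green for the flanks. The dyes were not swapped on any array, so a difference that follows the reference DNA and one that follows the green dye cannot be told apart.

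**Figure D4:**
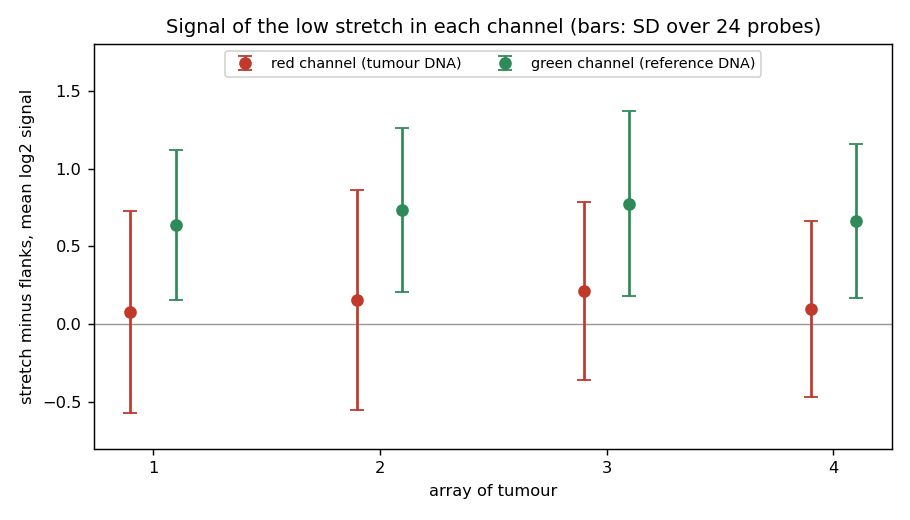
Mean log2 signal of the 24 probes of the low stretch minus that of the 167 flanking probes (vertical axis) on each array (horizontal axis), for the red channel (tumour DNA) and the green channel (reference DNA). Bars are the SD over the 24 probes. The red values lie between 0.08 and 0.22, the green values between 0.64 and 0.77.

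Between tumours, the level of the stretch had a smaller range than that of chromosomes 9, 12 and 15. Chromosome 9 averaged -0.31, -0.19, -0.10 and -0.02 in tumours 1 to 4, a range of 0.29. Chromosome 12 averaged -0.29, -0.23, -0.07 and -0.02, a range of 0.27, and chromosome 15 averaged 0.27, 0.28, 0.09 and -0.00, a range of 0.29. The stretch, with its range of 0.07, was as low in tumour 4, where these 3 chromosomes lay near 0, as in tumour 2. The rest of chromosome 14 lay between -0.02 and 0.01 in the 4 tumours. The difference in range was not tested, since the stretch was chosen on these values.

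**Figure D5:**
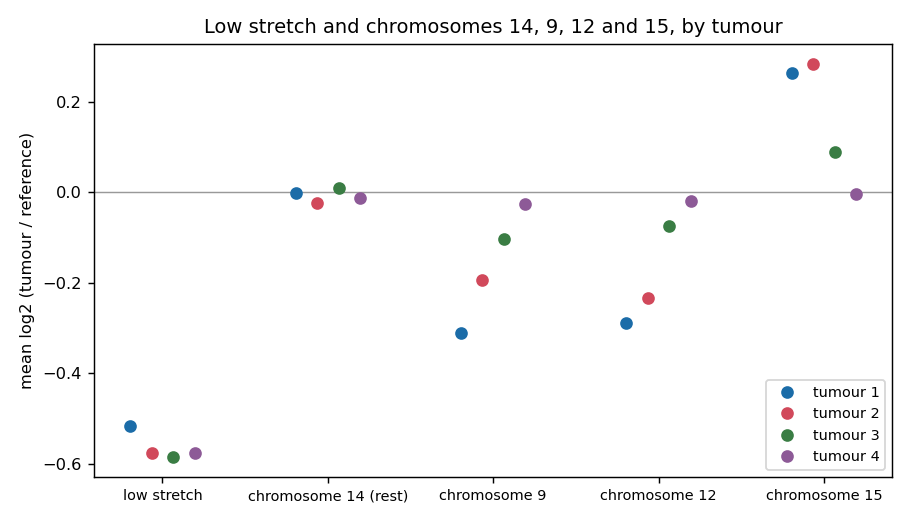
Mean log2 ratio of tumour over reference DNA (vertical axis) of the low stretch, of the rest of chromosome 14 and of chromosomes 9, 12 and 15 (horizontal axis); points are tumours. The 4 points of the stretch lie within 0.07 of each other, those of chromosomes 9, 12 and 15 spread over 0.27 to 0.29.

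Probe by probe, correlations between tumours in the stretch were close to those in its flanks. Over the 24 probes, Pearson's r was 0.88 between tumours 1 and 2, 0.80 between tumours 1 and 4, which shared a slide, and 0.70 between tumours 2 and 4. It was 0.08, 0.13 and 0.24 between tumour 3 and tumours 1, 2 and 4. Over the 167 flanking probes the same pairs gave 0.85, 0.72 and 0.68, and with tumour 3 0.06, 0.11 and 0.26. The points share probes, array design and a reference of the same kind, so these values are descriptions. A single probe ranged over the tumours by 0.13 to 0.71, with a median of 0.32. Tumour 3 had the lowest value at 13 of the 24 probes and the highest at 8.

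The gene names given here on both sides of the stretch averaged between -0.03 and 0.09 over tumours. On the left, ENSMUST00000111071, 10.2 kb from the stretch, averaged -0.03 ± 0.04 over 15 probes (SD, n = 4), and Stc1, the gene of the hormone stanniocalcin, averaged 0.03 ± 0.14 over 2 probes. On the right, AF117951 averaged 0.03 ± 0.04 over 9 probes, Chmp7, which encodes a subunit of the membrane-remodelling ESCRT-III complex, 0.09 ± 0.05 over 2, and Tnfrsf10b, the gene of a TRAIL death receptor, 0.01 ± 0.09 over 2. In the order of protein-coding genes of RefSeq's GRCm38.p6 table, Synb, Entpd4, Gm16867, Gm21451, LOC115488278 and Entpd4b lie between Slc25a37 and Loxl2, and R3hcc1 lies between Loxl2 and Chmp7. Of these, Entpd4 alone gives its name to probes of the array. Entpd4b carries the same root name as Entpd4, and whether the Entpd4 probes also bind it was not tested.

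Relatives of the member genes elsewhere in the genome were compared over all gene items with limma (moderated test of the mean against 0, Benjamini-Hochberg adjustment). Of 20794 gene items, 30 (0.144%) were called lower and 0 (0.00%) higher at an adjusted p under 0.05. An unadjusted p under 0.05 was found for 5197, of which 2127 were higher. The test takes the 4 arrays as independent, while they share probes, dyes and a reference of the same kind. Over the 167 flanking probes, r was 0.68 to 0.85 among tumours 1, 2 and 4. A low p can therefore also come from probe offsets that repeat between arrays, and their part was not tested. Entpd4, Loxl2, Slc25a37 and AK031288 are among the 30, while AK046150 and BC086315 are not. This contrast chose the genes, so nothing is read from the 4 of 6. Without tumour 1, 2 or 4, 0 of the 6 members were called, and without tumour 3 the members called were 5. Of 48 listed relatives and neighbours, 40 had probes of their own and 0 were called in either direction by limma; 9 had an unadjusted p under 0.05.

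The 4 other lysyl oxidase genes, which act with Loxl2 on collagen and elastin, had a median of 0.14 over the genes, from Loxl1 at -0.08 to Lox at 0.18, against a median of -0.00 over all gene items. The 6 measured nucleotidase genes related to Entpd4 had a median of -0.04, from Entpd3 at -0.16 to Entpd6 at 0.30. The 16 measured genes of mitochondrial iron handling and haem synthesis, the pathway that mitoferrin-1 feeds, had a median of 0.08, from Cpox at -0.28 to Alad at 0.52. Alad, which encodes an enzyme of haem synthesis, had 1 probe at 0.58, 0.71, 0.39 and 0.40 in tumours 1 to 4, and its adjusted p of 0.088 (limma, n = 4) was the lowest of the 40. Alad passed under normexp correction, where 1369 of 20794 gene items were called lower and 819 higher. It also passed without tumour 3, where 295 were called lower and 90 higher. The 14 measured neighbours on chromosome 14 had a median of 0.02, with Sorbs3 lowest at -0.32.

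The gene items whose 4 tumour values lay nearest to those of the stretch were on other chromosomes. Of 9411 items with at least 3 probes outside the window, the smallest root mean square difference over the 4 tumours was that of 4922505G16Rik on chromosome 2, at 0.07 on the log2 scale, with -0.46, -0.60, -0.65 and -0.67 over 7 probes. Hebp1 on chromosome 6 (0.09), Glod4 on chromosome 11 (0.10), AK135698 on chromosome 12 (0.11) and Lhfpl4 on chromosome 6 (0.11), each with 3 probes, came next. Their means over tumours were -0.54, -0.48, -0.49 and -0.46.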

How the data were processed

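Genomic DNA of 4 liver tumours (red) and pooled spleen DNA of 3 mice (green) was compared on Agilent mouse arrays, 1 array per tumour. Per the file headers, the authors subtracted background and scaled each dye linearly before they took the deposited log10 ratio of red to green, and the deposited intensity values are the processed and raw signals of each channel, per the file headers. The submitters' processing notes name Agilent Feature Extraction 10.7.3.1. Positions are mm9. The series' deposited log10 value table matched the ratios at all 180880 features of each array within 0.5%, which settles its scale, centring and direction (column medians -0.0011, 0.0018, 0.00056 and 0.0032).

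Here, control spots and outlier-marked spots (93 to 126 per array) were left out, ratios turned to log2, spots of a probe averaged and each array centred on its autosomal median. Chromosome 14 was cut into segments by penalised least squares, solved exactly (penalty 4 times the log of the probe number times the noise variance). The noise SD between neighbouring probes was 0.25, 0.31, 0.16 and 0.17. A gene item is the mean over all probes from the first to the last that carry a gene's name, with any other probes between them included. Gene items were tested against 0 with limma 3.58.1 in R 4.3.3. The segment and limma steps were tested on simulated data. The labels put the tumours in separate mice, and all 4 form 1 group.

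The members and lists were chosen with earlier results of these data known. Named were the 6 members, the 3 nearest names on each side, list genes past the test, the lowest and highest of each list, and the 5 gene items most like the stretch; 1 gene that this rule names is not reported here. Names come from the array design, and 3 of the 6 member names are current symbols in RefSeq's GRCm38.p6 table, used for names and order only. Without an mm9 annotation, exons and introns were not assigned. Alternatives were normexp correction (offset 50), centring on the mode or on the flanks, the value table, raw signals, bright probes, GC correction, medians, other thresholds, penalties and gene spans, and each tumour left out; leaving out the leftmost probe was added after seeing the data.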

Additional observations from a re-analysis of the deposited data

Results flagged for a closer look

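Of 29 sets of 4 tumour values, 3 had a tumour whose gap to the nearest other was large relative to the whole range. In a set of independent values, chance does so in about 1 in 20 sets. Some of the 29 sets overlap, and the stretch, its members and the gene items most like it were chosen on these values. The count of 3 is therefore not set against that rate. In the low stretch, tumour 1 was the highest at -0.52, against -0.58, -0.58 and -0.58 in tumours 2 to 4. Relative to its flanks, the stretch was at -0.56, -0.58, -0.56 and -0.57 in tumours 1 to 4. Tumour 1 is the one whose sex chromosomes go against its label. In Tnfrsf10b, tumour 2 was the lowest at -0.12, against 0.04, 0.07 and 0.04 in tumours 1, 3 and 4. In Lox, which has 1 probe, tumour 2 was the highest at 0.55, against 0.09, 0.00 and 0.07 in tumours 1, 3 and 4. Causes were not tested.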

How the results depend on the processing

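The mean of the low stretch was -0.56, and moved by more than the spread between tumours under normexp background correction (-0.72) and as a median over probes (-0.53); under the other alternatives it stayed between -0.59 and -0.56, which includes leaving out the leftmost probe (-0.57) and each tumour in turn (-0.58 to -0.56). The 6 member genes stayed below 0 under all 72 combinations of gene and alternative, with 67 within the spread between tumours. The number of window probes at or below -0.3 was 17, with 13 to 21 under the alternatives, and the ends moved in tumour 3 alone. The count of 30 gene items called lower by limma moved most: it was 1369 under normexp correction (with 819 higher), 8 with spans widened by 50 kb and 14 over items of at least 3 probes, where fewer items were tested, and ranged from 0 to 295 without 1 tumour (8 without tumour 1, 0 without tumour 2, 295, with 90 higher, without tumour 3 and 0 without tumour 4). The count of listed genes called, 0, was 4 under normexp correction (Alad, Entpd3, Entpd6 and Sorbs3) and 0 to 1 without 1 tumour (Alad without tumour 3). The causes were not tested. No paired analysis was possible because the tumours form 1 group. The slide as a random block was not run, since limma returned no correlation.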
